A study of Mus musculus with 6 samples.

Results

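The genes described here encode the subunits of the mitochondrial respiratory chain and ATP synthase, measured in pituitary glands of wild-type mice and of mice labelled Bmal1-/-. The rule that defines the family uses the annotated gene symbol: Nduf followed by a, b, c, s or v, Sdha to Sdhd, and symbols beginning with Uqcr, Cox4 to Cox8 or Atp5. Of the 12393 genes with a probe set assigned to a single gene, 84 had such a symbol, and each was read from its brightest probe set by the mean of all 6 arrays. Of the 84, 78 encode subunits and 6 encode assembly or supercomplex factors (Ndufaf1, Ndufaf3, Ndufaf4, Ndufaf5, Ndufaf7 and Cox7a2l). Of the subunits, 33 belong to complex I, 4 to complex II, 8 to complex III, 16 to complex IV and 17 to complex V. Ndufa4 was counted with complex IV, where its product is now placed in spite of its name. Of the 84 genes, 80 lay above the level filter and were tested, among 8033 tested genes, and 4 tissue isoforms of complex IV lay below it.

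Both groups were male C57BL/6J mice aged 8 to 12 weeks under a cycle of 12 hours of light and 12 of darkness, and glands were taken at zeitgeber time 12, when the lights went off. One group was wild type and the other carried the Bmal1-/- genotype, whose allele and construction are not described further in the labels. Total RNA of 3 pools per genotype, each of 3 whole glands, gave biotinylated cRNA from 1 ug of RNA for an Affymetrix expression array. Wild-type pools are numbered 1 to 3 and Bmal1-/- pools 4 to 6, so n = 3 arrays per genotype throughout. Limma p-values rest on the spread between pools, moderated toward that of probe sets of similar intensity. They therefore do not measure the spread of a gene's own pools alone. Fold changes are differences of log2(intensity + 16), Bmal1-/- minus wild type, a scale that understates the change of dim genes. Arntl itself, read from 1 probe set, gave intensities of 39.6, 51.7 and 38.6 in wild type and 112, 102 and 127.5 in Bmal1-/-, a log2 difference of 1.13 (SE 0.14, limma adjusted p = 0.000653). The labels do not say whether this probe set lies inside the deleted region, so its signal checks nothing about the genotype labels, and every direction here rests on those labels.

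Complexes I to IV pass electrons from NADH and succinate to oxygen and, except for complex II, pump protons across the inner mitochondrial membrane, and complex V uses the returning protons to make ATP. All but a few of their subunits are encoded in the nucleus, and their genes are commonly described as being controlled together by the nuclear respiratory factor NRF1, by ETS-family factors such as GABP and by estrogen-related receptors. BMAL1, the product of Arntl, pairs with CLOCK and binds E-box elements in DNA to drive the circadian clock. In the endocrine pituitary, mitochondria supply the ATP needed to make and secrete hormones.

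Respiratory chain genes differed little between the genotypes. Of 80 tested genes 3 were higher in the arrays labelled Bmal1-/- (Atp5b, Sdhc and Atp5k) and 1 was lower (Uqcrfs1), by limma with Benjamini-Hochberg adjustment over all 13576 tested probe sets at an adjusted p under 0.05. That is 5.00% of the family, against 5.66% of all tested genes (3.00% higher and 2.66% lower) and 9.01% of the brightest 25% of tested genes by mean level, where 69 of the 80 members and all 4 called ones lie. Each of the 4 calls was of modest size, from -0.44 to 0.49 on the log2 scale. On brightest probe sets, no member differed by more than 0.5 on that scale. Of the 8033 tested genes 435 (5.42%) did, and 3.58% of the brightest 25%. Dimmer probe sets of Cox6c (-0.535, limma adjusted p = 0.0492) and Sdhd (-0.503, limma adjusted p = 0.263) went past 0.5. So did Atp5b with equal array medians (0.55) and the dim gene Ndufb1 with 1 in place of 16 added to intensities (0.63). In whole glands, fewer cells of a type and less RNA per cell cannot be told apart.

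The members were measured more tightly than most genes, much as other bright genes were. Their median standard error was 0.080, against 0.128 over all tested genes and 0.089 in the brightest 25% of them. For 70 members (87.5%) the 95% interval of the difference lay within 0.5 of 0 on the log2 scale, against 84.2% of the brightest 25% and 64.6% of all tested genes. The median absolute difference was 0.087 for the members, 0.122 for the brightest 25% and 0.142 for all tested genes. At the looser unadjusted p under 0.05, 16 of the 80 members passed, against 21.5% of all tested genes and 29.3% of the brightest 25%. The arrays of the genotypes did not overlap for 23 members (28.7%), 16 of them higher and 7 lower in Bmal1-/-, against 26.4% of all tested genes and 33.5% of the brightest 25%. The difference was above 0 for 49 of the 80 members (61.3%), against 49.9% of all tested genes and 55.4% of the brightest 25%. Its median was 0.05 for the members, 0.00 for all tested genes and 0.03 for the brightest 25%. The share above 0 exceeds both backgrounds and was not tested. Counts near or below these backgrounds are no result about the members.

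**Figure D1:**
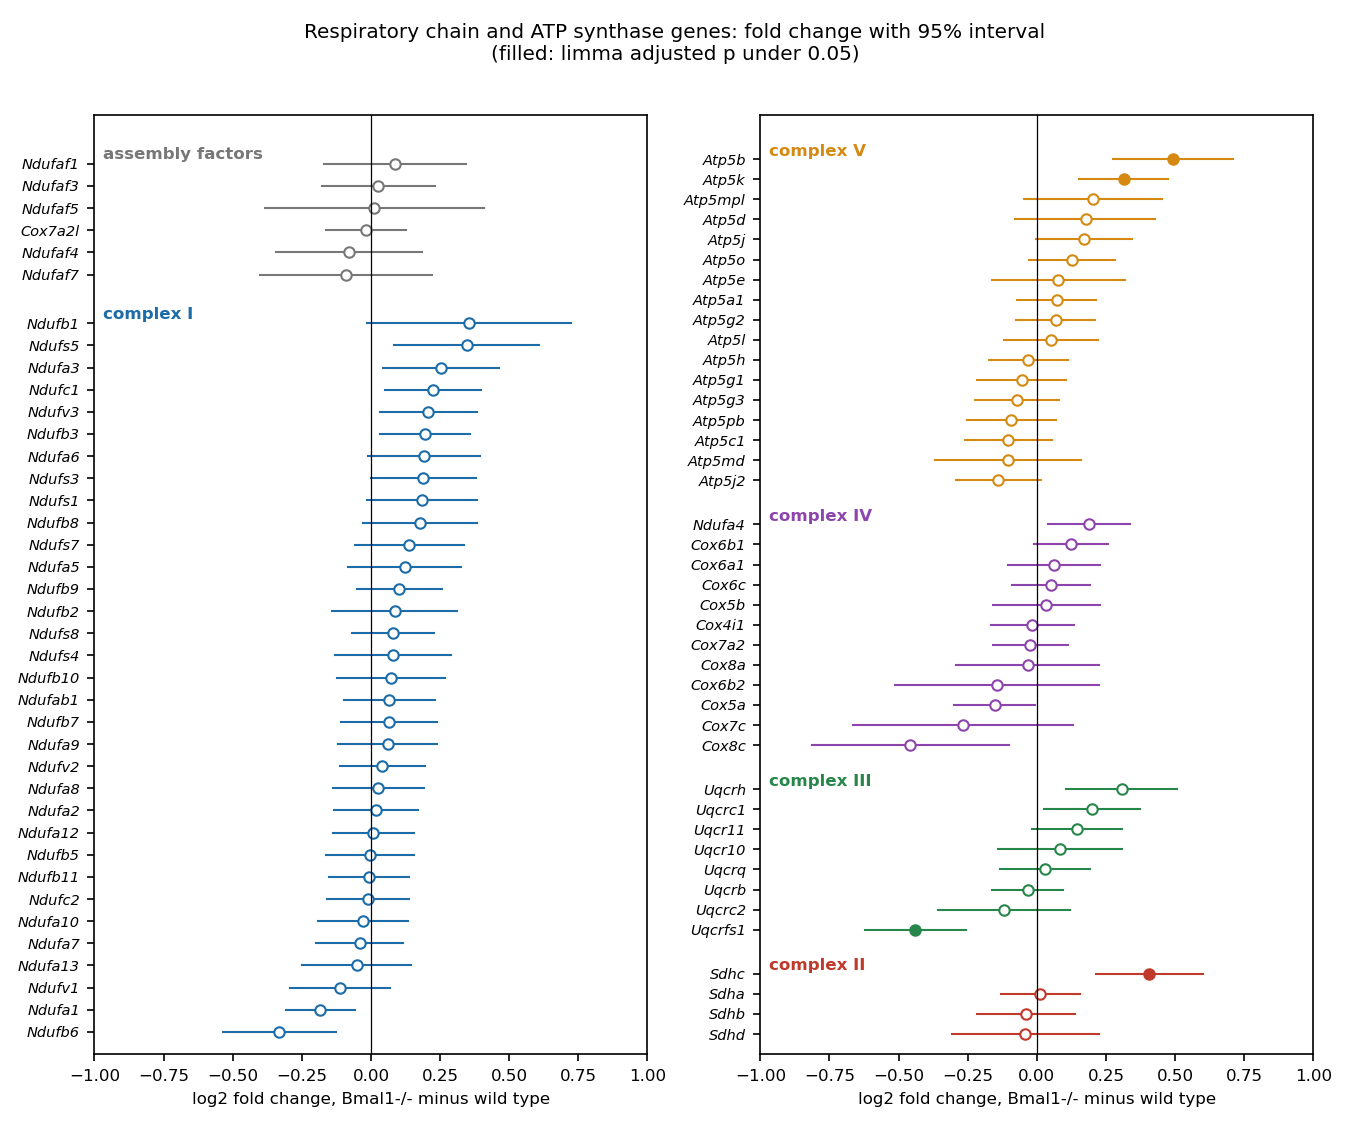
Log2 fold change (horizontal axis, Bmal1-/- minus wild type, differences of log2(intensity + 16)) of each of the 80 tested genes, grouped by complex, with lines for the 95% interval and filled points for a limma adjusted p under 0.05. The 4 filled points are Atp5b, Atp5k, Sdhc and Uqcrfs1, and no point lies beyond 0.5 in either direction.

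Pearson's r across tested probe sets was at least 0.980 for arrays of the same genotype and at least 0.970 for arrays of different genotypes. The median intensity was 33.5 to 34.3 on wild-type arrays and 31.7 to 32.2 on Bmal1-/- arrays, and with equal medians 4 members were higher and 1 lower. The log2 ratio of 3' to 5' control signal for Actb was 0.74 to 0.91 on wild-type arrays and 0.65 to 0.89 on Bmal1-/- arrays. For Gapdh it was -0.67 to -0.52 on wild-type arrays and -0.79 to -0.62 on Bmal1-/- arrays. Pituitary hormone transcripts were abundant on all 6 arrays, with Gh at 15480 to 20434 and Prl at 12323 to 14923. The arrays differed between genotypes in markers of other cells: Rgs5 and Dcn, markers of pericytes and fibroblasts, fell by 0.78 and 0.80 on the log2 scale, while Pdgfrb (-0.10) and Col1a1 (0.18) of the same list did not pass. The summed signal of the 4 listed pericyte and fibroblast markers ranged over 1235 to 1337 on wild-type arrays and 778 to 811 on Bmal1-/- arrays, most of it from Rgs5 and Dcn. All 3 measured somatotroph markers were lower (Gh -0.27, Ghrhr -0.66, Dlk1 -0.29). Of the 2 tested markers of posterior lobe glia and myelin, Mbp was higher by 0.52, and the sum of the 6 measured ones was 127 to 180 on wild-type arrays and 190 to 218 on Bmal1-/- arrays, mostly from Mbp, with Gfap at 8.2 to 25.5 and 5.7 to 11.2. Summed markers did not overlap either for macrophages (162 to 185 against 111 to 145), posterior lobe axons (192 to 305 against 135 to 172) and corticotrophs and melanotrophs (9974 to 11712 against 8799 to 9919), with no marker called. Among thyrotroph markers Dio2 was higher by 1.11 and Tshb (-0.04) and Trhr (0.12) did not pass, and 8 further marker lists held no call and overlapped. The part of these cell populations in the respiratory chain values was not tested.

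The promoters of the called genes are shown first, because the regulators named above act through short elements near the start of transcription. The letters are 250 bases before the RefSeq start on build GRCm38.p6, read 5' to 3' on the gene's strand. Atp5k lies at chr5:108434400-108434649 (minus strand), Atp5b at chr10:128083057-128083306 (plus strand) and Uqcrfs1 at chr13:30545317-30545566 (minus strand). Capitals in Atp5k mark 2 overlapping matches on opposite strands, 50 and 48 bases before the start, to the NRF1 core GCATGCGC. The table used has no Sdhc promoter.
Atp5k: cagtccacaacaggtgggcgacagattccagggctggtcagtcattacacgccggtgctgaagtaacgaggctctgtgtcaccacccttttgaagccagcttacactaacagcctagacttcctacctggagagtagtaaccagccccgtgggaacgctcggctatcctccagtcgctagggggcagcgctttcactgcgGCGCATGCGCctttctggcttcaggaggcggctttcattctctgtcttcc
Atp5b: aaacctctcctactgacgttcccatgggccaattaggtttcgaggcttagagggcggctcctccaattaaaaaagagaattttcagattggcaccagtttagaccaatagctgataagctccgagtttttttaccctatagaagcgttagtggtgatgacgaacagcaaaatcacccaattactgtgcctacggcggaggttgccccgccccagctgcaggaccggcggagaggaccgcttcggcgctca
Uqcrfs1: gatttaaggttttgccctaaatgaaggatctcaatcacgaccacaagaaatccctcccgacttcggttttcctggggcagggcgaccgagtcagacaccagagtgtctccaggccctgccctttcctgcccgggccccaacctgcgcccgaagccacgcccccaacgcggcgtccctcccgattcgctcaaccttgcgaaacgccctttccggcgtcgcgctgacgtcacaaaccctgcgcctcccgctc
In these bases Atp5b and Uqcrfs1 hold no match, on either strand, to the E-box CACGTG, the NRF1 core, the ETS motif CCGGAAG or the ERR motif AAGGTCA. Atp5k has an ETS match 12 bases and an ERR match 23 bases after its start.

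Complex I is the NADH dehydrogenase that feeds electrons from NADH to ubiquinone. It had no member past the threshold among 33 tested on their brightest probe sets. An ordinary test without moderation also gave 0, but it called only 23 of all 8033 tested genes, so this says nothing about so few. At an unadjusted p under 0.05 complex I had 7 (21.2%), against 21.5% of all tested genes and 29.3% of the brightest 25%. Its fold changes ran from -0.33 (Ndufb6) to 0.36 (Ndufb1), with a median of 0.07 against 0.00 for all tested genes and 0.03 for the brightest 25%. The difference was above 0 for 24 of its 33 genes (72.7%), against 49.9% of all tested genes and 55.4% of the brightest 25%. The mean log2 level over the 33 genes was 9.11, 9.12 and 9.05 in wild type and 9.17, 9.18 and 9.16 in Bmal1-/-, a difference of 0.08, and the genotypes did not overlap. The same mean over all 8033 tested genes, 7.128 to 7.133 on wild-type and 7.120 to 7.126 on Bmal1-/- arrays, did not overlap either, with a difference of -0.01.

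The 6 core subunits of complex I, which include the carriers of the flavin and iron-sulfur clusters, had a median of 0.11, and none passed. Ndufs1, the large iron-sulfur protein of the electron-input arm, read 230.4, 242.1 and 255.7 in wild type and 274.4, 260.0 and 299.6 in Bmal1-/-. These did not overlap, yet the difference of 0.18 (SE 0.09) did not pass (limma adjusted p = 0.279). Ndufv1, which holds the flavin that takes electrons from NADH, lay on the other side, at 393.8, 400.0 and 429.2 in wild type and 391.1, 349.2 and 388.4 in Bmal1-/-. The lowest wild-type array was only just above the highest Bmal1-/- array, and its difference was -0.11 (SE 0.08, limma adjusted p = 0.486). Ndufs7, which carries the cluster nearest ubiquinone, overlapped between genotypes with a difference of 0.14 (limma adjusted p = 0.415).

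The 27 accessory subunits of complex I, which surround the core and are needed to build it, had a median of 0.07. Of them 7 (25.9%) had an unadjusted p under 0.05, against 21.5% of all tested genes and 29.3% of the brightest 25%. Ndufb6, a membrane-arm subunit, was nearest the threshold, at 652.4, 506.3 and 562.6 in wild type and 460.9, 446.0 and 444.9 in Bmal1-/-. All Bmal1-/- arrays were below all wild-type arrays, with a difference of -0.33 (SE 0.09, limma adjusted p = 0.0604), and without wild-type replicate 2 it passed (limma adjusted p = 0.0205). Its second probe set went the other way, by 0.11 (408 ± 17.0 in wild type and 442 ± 20.4 in Bmal1-/-, SD, n = 3). Ndufa1, a small membrane subunit required for assembly, read 2658.5, 2603.0 and 2612.3 in wild type and 2281.2, 2353.6 and 2295.7 in Bmal1-/-. This gap of -0.18 (SE 0.06) is wide against the spread of each group, but its limma adjusted p was 0.0871.

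On the higher side, Ndufs5 read 141.6, 112.9 and 105.6 in wild type and 149.8, 150.4 and 167.9 in Bmal1-/-, a difference of 0.35 (SE 0.12, limma adjusted p = 0.117). The genotypes did not overlap, as was also so for Ndufc1 (0.23), Ndufv3 (0.21), Ndufb3 (0.20) and Ndufb9 (0.10), none of which passed on its brightest probe set. Ndufb1 had the largest difference in complex I, 0.36, on intensities of only 13.2 to 27.7, with overlapping genotypes and a limma adjusted p of 0.255. Ndufa3 (0.25) passed only when wild-type replicate 2 was left out, among the alternatives run.

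Complex II, succinate dehydrogenase, links the citrate cycle to the chain, and 1 of its 4 genes passed. With 5.66% of all tested genes called, 1 of 4 says little about the complex. Sdhc, one of 2 membrane anchors that hold the heme and the ubiquinone site, rose, and the fold changes of the other 3 lay between -0.04 and 0.01 on their brightest probe sets. With the mean of a gene's probe sets Sdhd was at -0.27 (limma adjusted p = 0.171) and Sdha at 0.15 (limma adjusted p = 0.251). Sdhc read 253.3, 253.2 and 296.0 in wild type and 361.8, 358.7 and 356.6 in Bmal1-/-. The Bmal1-/- arrays lay within 6 units of each other and all above wild type. The difference was 0.41 (SE 0.09, 95% interval 0.21 to 0.60, limma adjusted p = 0.0219). Sdhd, the other anchor, differed by -0.04 (SE 0.12, 95% interval -0.31 to 0.22). Sdhb, the iron-sulfur subunit, differed by -0.04 (SE 0.08, 95% interval -0.22 to 0.14), and Sdha, the flavoprotein that oxidises succinate, by 0.01 (SE 0.07, 95% interval -0.13 to 0.15). The mean over the 4 genes overlapped between genotypes.

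The Sdhc call has limits of its own. A second Sdhc probe set, at 145, 186 and 150 in wild type and 103.5, 149.2 and 124.9 in Bmal1-/-, went the opposite way by -0.32 (SE 0.14, limma adjusted p = 0.204). With the mean of both the difference was 0.04 (limma adjusted p = 0.827). The call also ended on leaving out wild-type array 1 (limma adjusted p = 0.0711) or any array labelled Bmal1-/- (0.0694, 0.0774 and 0.0631 for 4, 5 and 6).

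Complex III, the cytochrome bc1 complex that passes electrons from ubiquinol to cytochrome c, held the single lower call of the family. With 5.66% of all tested genes called, 1 of 8 (12.5%) says little about the complex. Uqcrfs1, the Rieske iron-sulfur protein at the catalytic centre of the complex, read 692.2, 658.1 and 710.9 in wild type and 545.1, 455.8 and 509.9 in Bmal1-/-. Every Bmal1-/- array was below every wild-type array. Uqcrfs1 fell by 0.44 on the log2 scale (SE 0.08, 95% interval -0.62 to -0.26, limma adjusted p = 0.0110), the smallest adjusted p among the 80 tested genes. It has 1 probe set, and the call ended without wild-type replicate 3 (limma adjusted p = 0.0532) or without Bmal1-/- replicate 5 (0.0557).

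Other complex III genes lay on the opposite side. Uqcrh, the hinge protein that helps cytochrome c to dock, read 638.6, 562.3 and 719.2 in wild type and 747.0, 828.7 and 802.2 in Bmal1-/-. The genotypes did not overlap, but the difference of 0.31 (SE 0.09) did not pass (limma adjusted p = 0.0733). With all arrays set to equal medians Uqcrh passed, at 0.37 (limma adjusted p = 0.0305). Uqcrc1, a large core protein facing the matrix, differed by 0.20 (SE 0.08, limma adjusted p = 0.167) and Uqcr11, a small accessory subunit, by 0.15 (limma adjusted p = 0.295), both without overlap. Uqcrc2, the partner of Uqcrc1, overlapped with a difference of -0.12 (SE 0.11, limma adjusted p = 0.589). The median of the 8 genes was 0.06, and their mean level ran from 9.36 to 9.42 on wild-type arrays and from 9.40 to 9.43 on Bmal1-/- arrays.

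**Figure D2:**
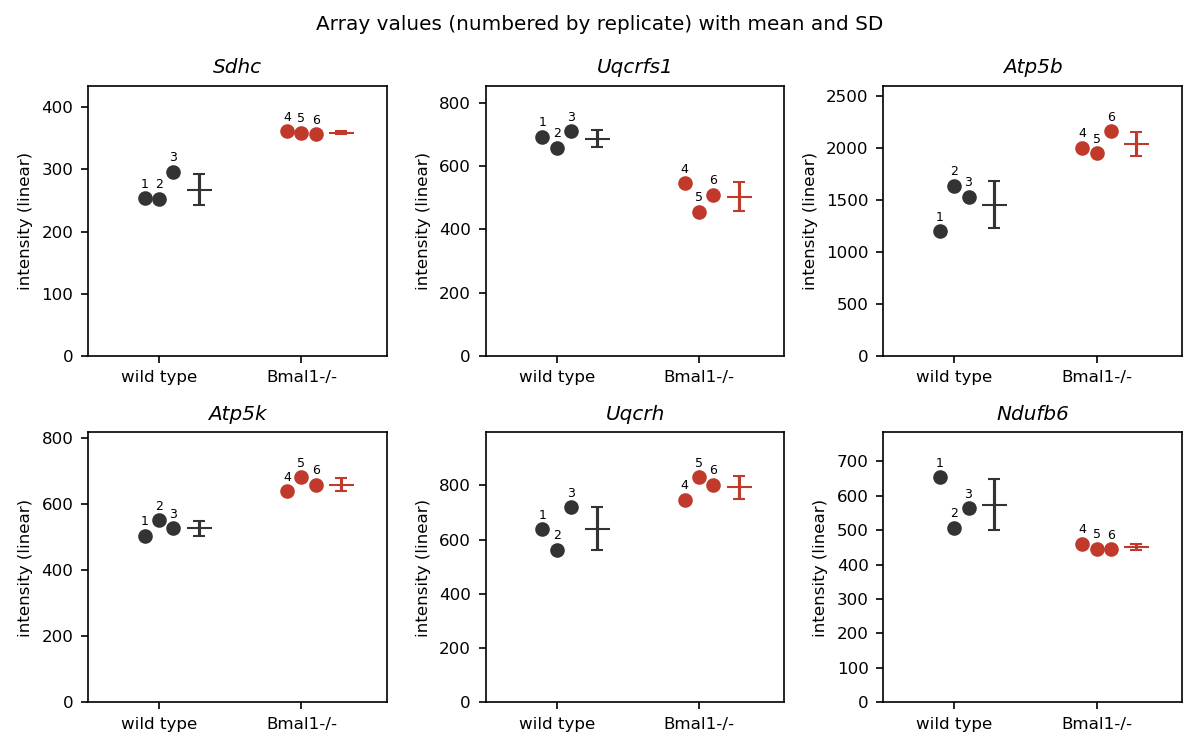
Intensity on a linear scale (vertical axis, starting at 0) on each array for the 4 called genes Sdhc, Uqcrfs1, Atp5b and Atp5k and for Uqcrh and Ndufb6, which did not pass, with numbers for the replicate and bars for the mean and SD of 3 arrays per genotype. In all 6 genes the genotypes do not overlap, and Atp5b shows the widest spread in wild type, from 1202 to 1636.

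Complex IV, cytochrome c oxidase, which hands electrons to oxygen, had no call among 12 tested genes. An ordinary test also gave 0, but it called only 23 of all 8033 tested genes, so this says nothing about so few. At an unadjusted p under 0.05 complex IV had 3 of 12, against 21.5% of all tested genes and 29.3% of the brightest 25%. The 10 ubiquitous members of complex IV were evenly split, 5 above and 5 below 0, with a median of 0.01. Cox4i1, a large regulatory subunit of the nuclear set, read 1545.9, 1596.3 and 1406.2 in wild type and 1475.3, 1468.9 and 1546.4 in Bmal1-/-. The arrays were interleaved, and the difference was -0.02 (SE 0.07, 95% interval -0.17 to 0.13). Cox5a, at 803.2, 821.1 and 807.1 in wild type and 746.7, 719.0 and 717.0 in Bmal1-/-, did not overlap, but its difference of -0.15 (SE 0.07) did not pass (limma adjusted p = 0.219). Dimmer Cox5a probe sets overlapped, with differences of 0.045 (limma adjusted p = 0.791) and -0.217 (limma adjusted p = 0.39). Cox5b, which binds zinc, overlapped with a difference of 0.03 (SE 0.09) on its brightest probe set. Without _x_at and _s_at probe sets Cox5b was read from another, without overlap, at -0.26 (limma adjusted p = 0.0761). Ndufa4 (0.19, limma adjusted p = 0.133) and Cox6b1 (0.12, limma adjusted p = 0.274) were the 2 whose Bmal1-/- arrays all lay above wild type. Cox7c was read at only 14.2 to 34.4 and differed by -0.27 (SE 0.18, limma adjusted p = 0.441).

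The tissue isoforms of complex IV were near the bottom of the measured range. Cox8c, a testis isoform, read 28.4, 42.8 and 45.0 in wild type and 20.9, 25.8 and 23.9 in Bmal1-/-. This is the lowest fold change of the family, -0.46 (SE 0.16), without overlap, and it did not pass (limma adjusted p = 0.127). Cox6b2, also known from testis, overlapped at 19.0 to 34.9 (-0.14, limma adjusted p = 0.683). The muscle isoforms Cox6a2 (2.3 to 14.5), Cox7a1 (7.6 to 15.9) and Cox8b (6.2 to 22.8) and the lung isoform Cox4i2 (4.3 to 21.8) overlapped between genotypes and were not tested. None of 8 muscle marker genes passed the level filter, and their summed signal was 25.8 to 38.8 on wild-type arrays and 14.3 to 57.3 on Bmal1-/- arrays. Over the 12 tested genes the mean level differed by -0.05, with overlap, and by 0.01 once array medians were equalised, so complex IV has no settled direction.

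Complex V, ATP synthase, held 2 of the 3 higher calls among 17 tested genes, 1 in the catalytic head and 1 in the membrane part. Atp5b, the beta subunit that carries the catalytic sites, read 1201.7, 1635.6 and 1529.8 in wild type and 2002.5, 1949.7 and 2163.2 in Bmal1-/-. Every Bmal1-/- array lay above every wild-type array, and the means were 1456 ± 226 and 2038 ± 111 (SD, n = 3). Atp5b rose by 0.49 (SE 0.10, 95% interval 0.27 to 0.71, limma adjusted p = 0.0160), the largest fold change of the family. It has 1 probe set, and its call ended only without Bmal1-/- replicate 6 (limma adjusted p = 0.0625) among the 6 arrays left out in turn.

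The partners of Atp5b in the catalytic head did not pass. Atp5a1, the alpha subunit that alternates with beta in the ring of the head, read 1429.5, 1497.9 and 1387.9 in wild type and 1446.2, 1533.3 and 1559.0 in Bmal1-/-. These overlapped, and the 95% interval of its difference, -0.07 to 0.21 around 0.07, did not overlap that of Atp5b, although the difference between the genes was not tested. Atp5c1, the gamma subunit that turns inside the ring, differed by -0.10 (SE 0.07, limma adjusted p = 0.451).

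Atp5k, subunit e of the membrane part that helps synthase dimers form, read 504.5, 550.4 and 526.1 in wild type and 638.9, 680.4 and 658.2 in Bmal1-/-. The groups were well apart, with SDs of 23.0 and 20.8 around 527 and 659. Atp5k rose by 0.32 (SE 0.07, 95% interval 0.15 to 0.48, limma adjusted p = 0.0305). All 3 of its probe sets gave the same direction: one other differed by 0.32 (limma adjusted p = 0.088) and the last by 0.41 (limma adjusted p = 0.030). The call ended on leaving out wild-type array 1 or 3 (limma adjusted p = 0.0925 and 0.0861) or any array labelled Bmal1-/- (0.0662, 0.121 and 0.0857 for 4, 5 and 6), with a fold change of 0.29 to 0.35 over the 6 omissions.

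The remaining ATP synthase genes were close to even. The 3 c-ring genes Atp5g1, Atp5g2 and Atp5g3, which encode the same mature proton-carrying subunit, differed by -0.05, 0.07 and -0.07. Atp5j, of the peripheral stalk that holds the head still, was nearest the threshold without passing, at 0.17 (SE 0.08, limma adjusted p = 0.248). Atp5o, which joins the stalk to the head, read 598.2, 578.9 and 572.6 in wild type and 640.1, 620.1 and 654.7 in Bmal1-/-, apart but only by 0.13 (limma adjusted p = 0.335). A dimmer Atp5o probe set overlapped, with a difference of -0.39 (SE 0.25, limma adjusted p = 0.396). Atp5j2, a membrane subunit, was apart and lower in Bmal1-/- on its brightest probe set, by -0.14 (limma adjusted p = 0.284). Its second probe set was apart the opposite way, by 0.12 (limma adjusted p = 0.347). That probe set read 845.7, 844.4 and 818.5 in wild type and 859.8, 953.4 and 924.2 in Bmal1-/-. The median over the complex was 0.07, and its mean level, 9.93 to 10.01 on wild-type and 10.01 to 10.04 on Bmal1-/- arrays, overlapped.

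**Figure D3:**
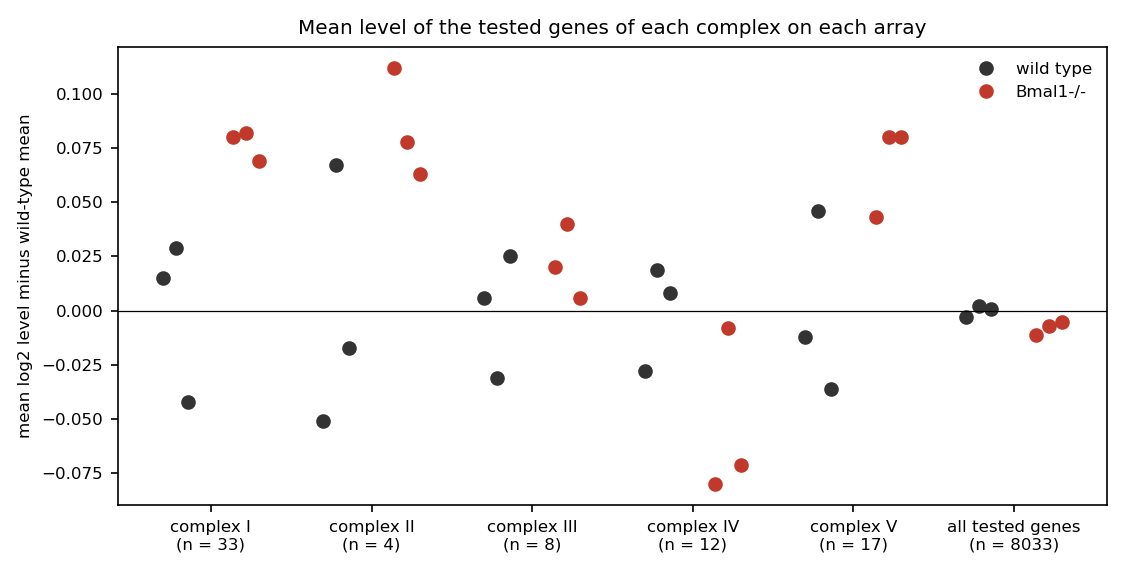
Mean log2 level over the tested genes of each complex on each array, with the wild-type mean of that complex set to 0 (vertical axis, log2(intensity + 16)), 3 arrays per genotype, and the mean over all tested genes at the right. Complex I does not overlap between genotypes, at a difference of 0.08, complexes II to V overlap, and the mean over all 8033 genes is nearly flat but also does not overlap.

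None of the 6 assembly and supercomplex factors passed, and 0 had an unadjusted p under 0.05, against 21.5% of all tested genes. The ordinary test, with only 23 calls among all 8033 tested genes, gave 0 for these 6 factors. They ran from -0.09 to 0.09, and all overlapped between genotypes. Cox7a2l, which links complexes III and IV into supercomplexes, differed by -0.02 and Ndufaf1, an early complex I assembly factor, by 0.09.

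Probe sets of the same gene often fell on both sides of 0, for some genes by differences well inside their error. Of the 139 tested probe sets of the family 8 passed (5.76%), against 5.54% of all tested probe sets. Of the 40 genes with 2 or more tested probe sets, 17 had all of them on 1 side of 0 and 23 had them on both sides, with a median range of 0.15. The 23 include genes with values close to 0, such as Ndufb5 (-0.004 and 0.014) and Cox8a (-0.033 and 0.004). The same count was not made over all genes. Ndufs8, an iron-sulfur core subunit of complex I, had the widest range of its 6 probe sets, 0.80. Its lowest value, -0.36 (SE 0.26), came from a dim probe set read at only 5.7 to 37.7. Its brightest gave 0.08, and another read 668.1, 575.6 and 569.2 in wild type and 734.1, 956.5 and 793.9 in Bmal1-/-, a difference of 0.44 (limma adjusted p = 0.029). Cox6c likewise gave 0.05 on its brightest probe set and -0.54 on its other (limma adjusted p = 0.049), and Ndufc1 gave 0.23 and 0.46 (limma adjusted p = 0.021 for the latter). Which probe set reads the full transcript was not tested.

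**Figure D4:**
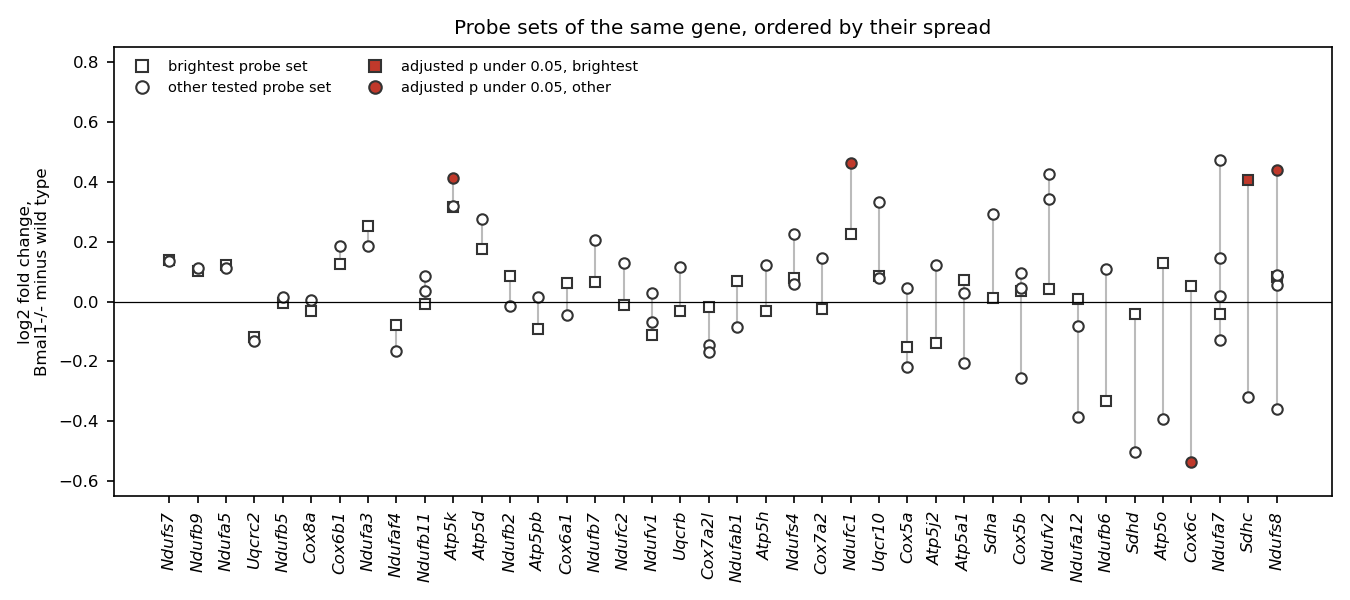
Log2 fold change (vertical axis, Bmal1-/- minus wild type) of every tested probe set of the 40 genes with 2 or more, ordered from the smallest to the largest range, with squares for the brightest probe set and red for a limma adjusted p under 0.05. Atp5k keeps 1 direction on all its probe sets, while Sdhc, Cox6c and Ndufs8, among the widest, lie on both sides of 0.

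E-box, NRF1, ETS and ERR motifs were then counted in 75 RefSeq promoter windows (250 bases before to 50 after the start, both strands) of 70 of the member genes. The NRF1 core was in 14.7% of these windows against 2.71% of all 32851 in the table, the ETS motif in 24.0% against 8.86%, and the ERR motif in 9.33% against 4.72%. The E-box was in 9.33% against 7.15%. A match of letters describes the sequence and is not a binding site. Of the 11 genes with an NRF1 core only Atp5k passed. Of the 18 genes with an ETS match and of the 7 with an ERR match only Atp5k passed too. With 5.66% of all tested genes called, 1 call says nothing about so few. The difference was above 0 for 9 of the 11, 12 of the 18 and 5 of the 7, against 61.3% of all members. It was above 0 for 1 of the 6 genes with an E-box. A link between motif and direction was not tested.

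The 6 genes with an E-box, the element that BMAL1 and CLOCK bind, are shown with their sites in capitals because this is the only motif here tied to the deleted factor. None passed, which at 5.66% of all tested genes says nothing about so few. Atp5g1 is at chr11:96075660-96075685 (minus), Atp5g3 at chr2:73911549-73911574 (minus) and Atp5l at chr9:44920874-44920899 (minus). Atp5pb is at chr3:105959497-105959513 (minus, cut short by the window's edge), Ndufa7 at chr17:33824490-33824515 (plus) and Ndufv1 at chr19:4012909-4012934 (minus), all on GRCm38.p6.
Atp5g1: ggactccgaaCACGTGggtgggggag
Atp5g3: ccctgcctggCACGTGcaaggagcga
Atp5l: caggattcttCACGTGttatcgcgcc
Atp5pb: aCACGTGgtgtacctct
Ndufa7: ggagaggagtCACGTGagcaggggat
Ndufv1: cagagggcgaCACGTGagcctggttt
The fold changes of these 6 were -0.05, -0.07, 0.05, -0.09, -0.04 and -0.11 in that order, each with a standard error of 0.07 to 0.08. The Ndufa7 site falls in both of its overlapping RefSeq promoters, and in Atp5g1 the E-box begins 44 bases before the start.

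Genes around the chain, and a few of its parts outside the symbol rule such as Cyc1, Cycs and ND5, were read from lists of known function. Each list's share of calls was below the 5.66% of all tested genes. Of 20 tested regulators of mitochondrial biogenesis, 0 were higher and 1 was lower: Mterf2, a mitochondrial transcription termination factor, read 100.4, 97.6 and 78.1 in wild type and 48.3, 59.2 and 47.2 in Bmal1-/-, and fell by 0.68 on the log2 scale (SE 0.14, limma adjusted p = 0.0154). Nrf1 (0.04), Gabpa (0.15), Esrra (-0.07) and Tfam (0.12), which act on respiratory chain genes or mitochondrial DNA, did not pass. Of 21 genes of the citrate cycle and pyruvate metabolism only Pcx, the pyruvate carboxylase that replenishes oxaloacetate, passed. Pcx fell by 0.56 on the log2 scale (SE 0.13, limma adjusted p = 0.0305), from 90.6 ± 9.77 to 56.3 ± 6.84 (SD, n = 3). Cs, citrate synthase, differed by 0.04.

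Of 29 assembly factors outside the symbol rule 1 passed, Uqcc3, a complex III assembly factor, which rose by 0.54 (SE 0.12, limma adjusted p = 0.0203), from 103 ± 8.65 to 157 ± 17.6 (SD, n = 3). Of 27 import and inner membrane genes 1 passed, the chaperonin Hspd1, at 0.25 (limma adjusted p = 0.0491). Of 74 mitochondrial ribosomal protein genes 2 were higher and none lower, Mrpl13 (0.41, limma adjusted p = 0.0169) and Mrpl34 (0.49, limma adjusted p = 0.0394), or 2.70% called. None of 19 carrier, channel and electron carrier genes passed, and the ordinary test, with only 23 calls among all 8033 tested genes, gave 0. Of the 19, 7 (36.8%) had an unadjusted p under 0.05, against 21.5% of all tested genes. Among them Vdac3, an outer membrane channel, was nearest, at 0.28 (limma adjusted p = 0.0613), and Cycs, cytochrome c, lay at -0.30 (limma adjusted p = 0.231). ND5, the only transcript of the mitochondrial genome read here, a complex I core subunit, was at 3124, 2648 and 3579 in wild type and 2606, 2737 and 2354 in Bmal1-/-, overlapping, with a difference of -0.27 (limma adjusted p = 0.133).

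Arntl lies on the same chromosome as 4 members within 20 Mb. Ndufab1 (0.07), Ndufc2 (-0.01) and Uqcrc2 (-0.12) did not pass, and Cox6a2 lay below the level filter. None of the 4 called genes is among these neighbours.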

How the data were processed

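Pituitary RNA of 6 pools was measured on 6 arrays, 3 per genotype, and this number limits the precision. The deposited table holds 1 linear intensity per probe set and array, made by the authors with MAS5, per the submitters' processing notes. Its version, target and calls of detection are not stated in the labels. The table's mean after trimming 2% at each end was 100.0 on every array, and no further normalization was applied.

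Values were taken as log2(intensity + 16). Probe sets in the top 60% by mean were tested, 13576 of 22690, after leaving out 64 array controls. limma 3.58.1 (lmFit, eBayes with intensity trend, two-sided) in R 4.3.3 was fitted to all of them, with Benjamini-Hochberg adjustment and a threshold of 0.05. The procedure was tested on simulated data. Motif letters were searched on both strands of RefSeq promoters (GRCm38.p6).

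The members and lists were chosen with earlier results of these data known. By rule, the text names every member past the threshold, the nearest to it and the 2 largest fold changes per complex, core subunits, tissue isoforms, and list genes that passed. Other members were named after their values were seen. The lists are 7 pathway lists and 15 marker lists. Probe sets annotated to several genes, 8 in number, were not analysed here. Alternatives tried were equal array medians, quantile normalization, pseudocounts of 1 and 64, other filters, thresholds and moderation, array weights, no _x_at or _s_at probe sets, the mean of a gene's probe sets, Ndufa4 counted in complex I (chosen after seeing the data), and each array left out.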

Additional observations from a re-analysis of the deposited data

How the results depend on the processing

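The main count was 3 members higher and 1 lower. The same 4 genes passed with pseudocounts of 1 and 64, quantile normalization, robust moderation and the top 40% of probe sets. There were 4 higher and 1 lower without _x_at and _s_at probe sets, with Ndufs8 added, and 3 and 1 with the mean of all probe sets, with Ndufc1 in place of Sdhc. There were 1 higher and 1 lower when all probe sets were tested. There were 0 and 0 when the trend was dropped, with the ordinary test or at a threshold of 0.01. The ordinary test called only 23 of all 8033 tested genes. There were 3 and 2 with array weights, and 4 and 3 at a threshold of 0.1. Leaving out each array gave 0 to 4 higher and 0 to 2 lower. With equal array medians the medians of complexes I to V became 0.134, 0.046, 0.117, 0.040 and 0.128, and the differences in mean array level 0.137, 0.145, 0.082, 0.007 and 0.128. The complex III median was 0.085 without _x_at and _s_at probe sets and 0.093 with the mean of all probe sets, which turned the complex II mean level to -0.029. The complex IV median was 0.015 with quantile normalization and 0.034 in the top 40%. Its mean level differed by -0.092 and -0.016 with pseudocounts of 1 and 64, -0.015 when all probe sets were tested and 0.026 in the top 40%. Leaving out each array moved the medians over -0.039 to 0.065 in complex II (0.065 without wild-type replicate 2), 0.025 to 0.081 in complex III and -0.012 to 0.094 in complex V (-0.012 without wild-type replicate 3). Counting Ndufa4 in complex I, chosen after seeing the data, gave medians of 0.077 for complex I and -0.024 for complex IV. It cannot change a call. The cause was not tested for any of these. Without the trend the 4 called genes had limma adjusted p of 0.0657 to 0.112. No paired analysis was possible because the genotypes carry different replicate numbers in the labels. Low intensities, as for Cox8c, Cox7c and Ndufb1, and 3 arrays per genotype limit what could be detected.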
